A study of Mus musculus with 4 samples.

Results

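Imprinted genes are expressed mainly from the copy inherited from 1 parent. A list of 39 mouse imprinted genes was drawn from known imprinted clusters and single loci, and its members were looked up by gene symbol among the genes that the authors assigned to Zeb1 peaks in mESC. The 39 genes stand among 26180 genes with a curated RefSeq transcript on the chromosomes used, and 49 of the 17435 peaks in the list were assigned to them. The measurement was chromatin immunoprecipitation followed by sequencing (ChIP-seq) for Zeb1, and the labels name 3 Zeb1 ChIP libraries and 1 Input library. All libraries came from the established mESC line D3, grown without feeder cells in ground state medium (GS), which is N2B27 with LIF at 20 ng/mL, PD0325901 at 1 μM to block MEK and CHIR99021 at 3 μM to block GSK-3. The chromatin was fixed with 1% formaldehyde and sheared to fragments of about 200 bp. The Zeb1 ChIP libraries were made with 8 μg of the H-102 antibody, and the Input library had no antibody. For each peak the list gives the authors' mean treatment reads, mean input reads and mean enrichment, a ratio of treatment over input that the authors scaled for mapped reads. In 11 of the 49 peaks the treatment reads were whole. The smallest factor that made them whole, to within 0.01, was 7 for 19 peaks, 2 for 9, 5 for 6, and 3, 10, 12 and 14 for 1 each, so how the authors averaged over the 3 libraries is not clear. Distances from a peak centre to a TSS are the deposited ones unless the reference is named, and those of peak edges and of stretches of sequence use reference TSSs. No value of a single library was given, so the values have no SD and no test over samples was possible. The reads of both parental copies are counted together in this list, so that binding on the expressed and on the silent copy cannot be told apart.

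Imprinting rests on DNA methylation that is set in the egg or the sperm at differentially methylated regions (DMRs) and kept on 1 parental copy after fertilization, while the genome around it is reprogrammed. Many DMRs methylated in the egg overlap a CpG-rich promoter that is then active only on the paternal copy, often the promoter of a paternally expressed gene or of a long non-coding RNA that silences its neighbours in cis. The zinc finger protein Zfp57 recognizes methylated TGCCGC in such regions and, with Trim28, protects the mark in embryonic stem cells. Zeb1 is a zinc finger and homeodomain factor known for binding E-boxes with the core CACCTG and for repressing epithelial genes such as Cdh1. Imprinting of several members is limited to some tissues or transcripts, and which copy was active in these cells was not measured here.

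Peaks of imprinted genes are shown here as stretches of 120 bases that hold the most matches to a motif outside annotated exons, read from GRCm38.p6, the assembly known as mm10. The first set comes from the 5 peaks with the most matches to TGCCGC per kb and shows examples of these matches in DNA recovered with Zeb1. Capitals mark TGCCGC or its reverse complement, and the sequences run 5′ to 3′.
Rasgrf1, chr9:89879754-89879873, plus strand: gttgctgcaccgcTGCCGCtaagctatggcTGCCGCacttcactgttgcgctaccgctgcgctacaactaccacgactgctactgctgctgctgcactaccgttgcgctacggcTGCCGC
Meg3, chr12:109528339-109528458, plus strand: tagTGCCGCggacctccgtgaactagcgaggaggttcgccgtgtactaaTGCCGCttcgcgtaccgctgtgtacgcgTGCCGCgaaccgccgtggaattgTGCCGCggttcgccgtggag
Nap1l5, chr6:58907127-58907246, plus strand: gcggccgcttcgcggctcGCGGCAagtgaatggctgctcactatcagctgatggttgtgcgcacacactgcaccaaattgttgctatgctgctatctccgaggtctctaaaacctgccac
Mest, chr6:30737591-30737710, plus strand: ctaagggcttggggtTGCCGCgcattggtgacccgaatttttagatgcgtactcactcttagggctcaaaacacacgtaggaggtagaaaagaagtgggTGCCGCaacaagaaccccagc
Plagl1, chr10:13090483-13090602, plus strand: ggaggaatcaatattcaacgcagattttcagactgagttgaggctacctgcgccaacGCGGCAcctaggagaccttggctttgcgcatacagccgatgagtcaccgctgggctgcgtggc
The Meg3 stretch, in an intron of the predicted gene Gm34081 and centred 12598 bp upstream of the Meg3 transcription start site (TSS), held 4 matches, all on the plus strand. The Rasgrf1 stretch, between genes and 29962 bp upstream of the Rasgrf1 TSS, held 3 matches. At least 3 matches to TGCCGC within 120 bases occurred in 1.56% of all peaks. The stretches of Mest, Nap1l5 and Plagl1 lay 402, 60 and 290 bp upstream of a TSS and held 2, 1 and 1 matches. Other matches of these 3 peaks lay outside the stretches shown.

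The second set comes from the 4 peaks with the highest enrichment within 5 kb of a TSS that held the Zeb1 motif outside exons, and shows the letters that the motif search found there. Capitals mark a match to CNCACCTG, CNTACCTG, TNCACCTG or TNTACCTG, the forms of the Zeb1 motif, on either strand. Matches with CACC also hold the E-box CACCTG, so that the counts of both overlap.
Gnas, chr2:174326802-174326921, plus strand: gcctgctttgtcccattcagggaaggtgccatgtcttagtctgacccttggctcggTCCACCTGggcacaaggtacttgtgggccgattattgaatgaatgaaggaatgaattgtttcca
Igf2, chr7:142657110-142657229, plus strand: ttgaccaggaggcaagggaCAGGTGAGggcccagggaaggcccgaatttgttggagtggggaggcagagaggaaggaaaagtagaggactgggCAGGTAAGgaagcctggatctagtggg
Cdkn1c, chr7:143461552-143461671, plus strand: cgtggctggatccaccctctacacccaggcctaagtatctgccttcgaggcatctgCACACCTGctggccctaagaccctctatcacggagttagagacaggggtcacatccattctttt
Ascl2, chr7:142969450-142969569, plus strand: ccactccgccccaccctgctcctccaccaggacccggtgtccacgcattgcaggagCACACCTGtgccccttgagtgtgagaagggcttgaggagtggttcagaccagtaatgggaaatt
The Igf2 stretch, in an intron 1634 bp downstream of the TSS, held 2 matches, both on the minus strand. The Gnas stretch, in an intron, and the Cdkn1c and Ascl2 stretches, upstream of their genes, held 1 match each. At least 2 matches to the motif within 120 bases occurred in 14.1% of all peaks. A match describes letters in the reference and does not mark a bound site.

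Of the 39 imprinted genes, 28 (71.8%) had at least 1 assigned peak, beside 46.8% of all curated genes. Among genes with a protein-coding RefSeq transcript the counts were 27 of 34 members (79.4%), beside 53.3% of all such genes. An assigned peak with its centre within 5 kb of the TSS was found for 24 members (61.5%), beside 38.0% of all curated genes. Whatever the assignment, 27 members (69.2%) had a TSS inside a peak, beside 42.2% of all curated genes. The shares of members were above those of all genes in each of these counts. The counts carry no test and describe a list chosen by hand, with earlier results of these data known. A single peak was assigned to 18 members, 2 peaks to 3 members, 3 peaks to 4 members, 4 peaks to Gnas and to Kcnq1, and 5 to Cdkn1c. Chr. 7, which carries 17 of the members, held 24 of the 49 peaks.

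The 11 members without an assigned peak were Airn, H19, Impact, Kcnq1ot1, Nespas, Rtl1, Sgce, Slc38a4, Usp29, Zim1 and Zrsr1. For 3 of them, Nespas, Sgce and Usp29, a TSS lay inside a peak that was assigned to the neighbour on the opposite strand, Gnas, Peg10 and Peg3. For the other 8 the nearest peak edge was between 9496 bp (Zrsr1) and 190445 bp (Slc38a4) from the nearest TSS. Among these 8 were H19, Airn and Kcnq1ot1, long non-coding RNAs of the Igf2, Igf2r and Kcnq1 clusters, with the nearest peak 44246, 27290 and 27904 bp away. Conversely, Snrpn, Meg3, Mcts2 and Zdbf2 had an assigned peak but no TSS inside any peak.

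**Figure D1:**
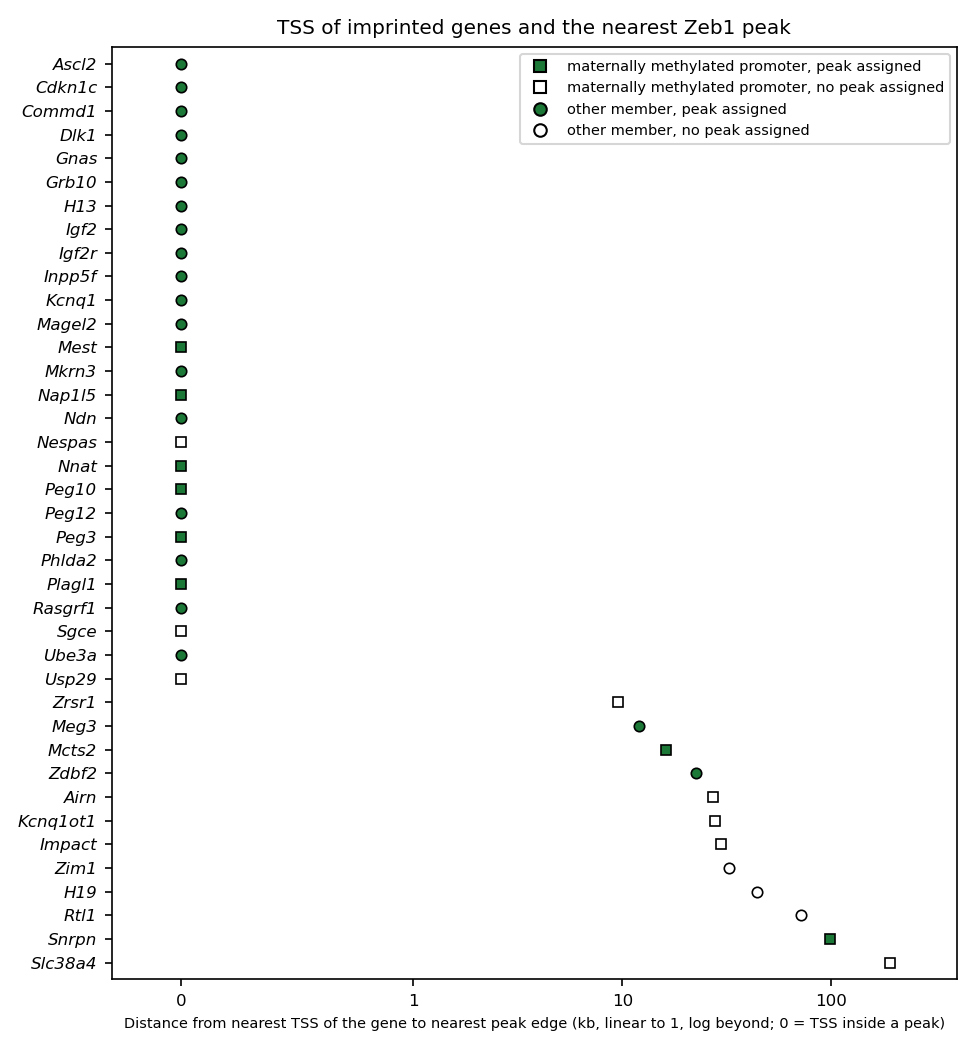
Distance in kb (linear to 1 kb, log beyond) from the nearest TSS of each of the 39 imprinted genes to the nearest edge of a Zeb1 peak, with squares for members with a maternally methylated promoter and filled symbols for members with an assigned peak. The TSS of 27 members lies inside a peak (distance 0), and the farthest is Slc38a4.

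By the parental copy that is known to be expressed, 17 of 26 paternally expressed members had an assigned peak (65.4%) and 14 had one within 5 kb of the TSS (53.8%), beside 46.8% and 38.0% of all curated genes. The counts for maternally expressed members were 11 (84.6%) and 10 (76.9%) of 13. Whatever the assignment, a TSS lay inside a peak for 17 paternally (65.4%) and 10 maternally expressed members (76.9%), beside 42.2% of all curated genes. Nespas, Sgce and Usp29, without an assigned peak, are among the 17. In a group of 16 members whose promoter lies in a maternally methylated DMR, 8 had an assigned peak (50%), 6 had one within 5 kb (37.5%) and 9 had a TSS inside a peak (56.2%), where all curated genes had 46.8%, 38.0% and 42.2%. The first and second share were near those of all genes and the third was above. Nespas, Sgce and Usp29 belong to this group. For the other 23 members these counts were 20 (87.0%), 18 (78.3%) and 18 (78.3%). The 23 include Grb10 and Gnas, which are known to have a maternally methylated DMR at an internal promoter. With both counted in the first group, a choice made after seeing the data, its counts were 10 (55.6%), 8 (44.4%) and 11 (61.1%) of 18. Those of the remaining 21 members were 18, 16 and 16. No other member was moved, and Inpp5f, whose imprinted transcript starts inside the gene, stayed among the 21. Whether further members have such a DMR was not checked. The difference between the groups was not tested, and the groups, like the members, were chosen with earlier results of these data known. The coordinates of the DMRs themselves were not used here, and overlap of peaks with them was not tested.

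Enrichment of the 49 peaks had a median of 6.64, with quartiles of 5.43 and 8.80, and ranged from 2.3 to 31.0. The median of all peaks was 6.5. Within 5 kb of a TSS the medians were 7 for the 31 peaks of members and 6.74 for all peaks, so that peaks at imprinted promoters had values like those of other promoter peaks. An enrichment of at least 10 was reached by 9 peaks of members (18.4%), beside 14.7% of all peaks. Medians of peaks assigned to paternally and to maternally expressed members were close, with 6.64 over 27 peaks and 6.60 over 22 peaks. Peaks took the label of the gene they were assigned to. All peaks of Gnas thus counted as maternal, also the one over the TSS of the paternally expressed Nespas.

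**Figure D2:**
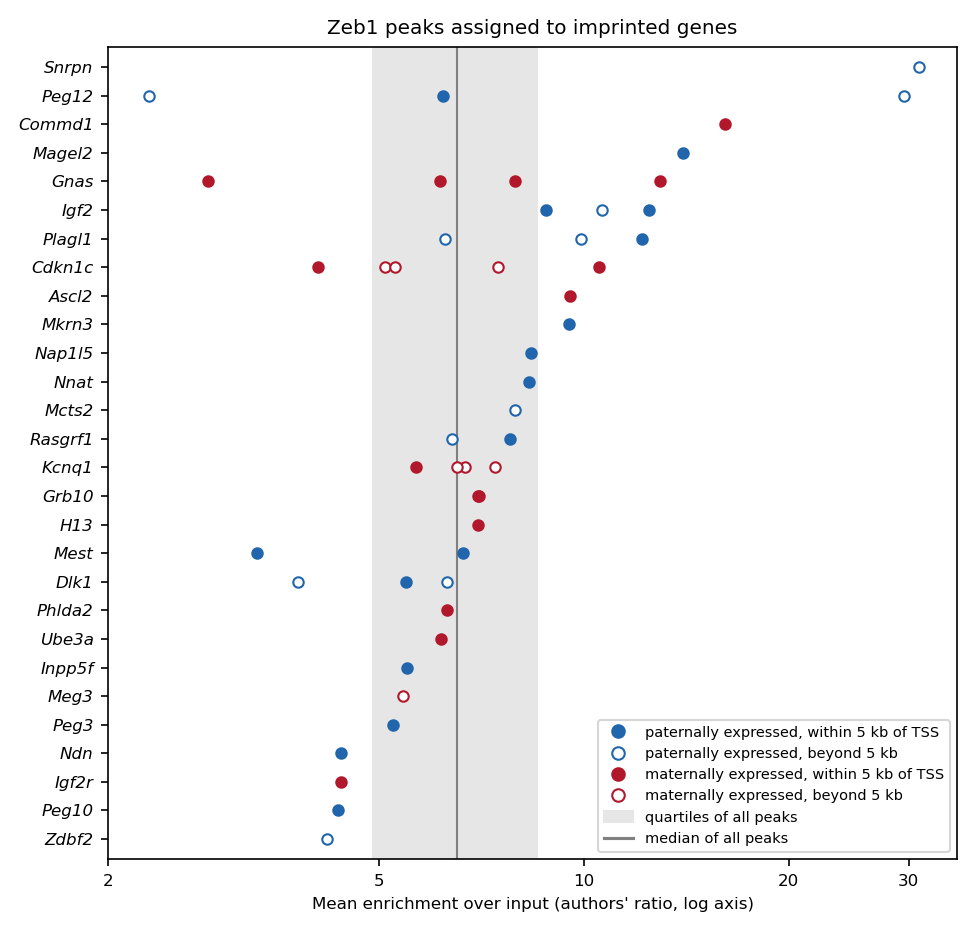
Mean enrichment over input (log axis) of each peak assigned to an imprinted gene, 1 row for each of 28 genes. Colour is the expressed parental copy listed for the assigned gene, and symbols are filled within 5 kb of the TSS. The grey band and line are the quartiles and the median of all peaks. The highest values, 31.0 at Snrpn and 29.6 at Peg12, belong to peaks beyond 5 kb, and Commd1 has the highest value within 5 kb, 16.1.

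Igf2, a growth factor of the fetus and placenta expressed from the paternal copy, had 3 peaks. The widest, chr7:142656651-142661600, had its centre 321 bp upstream of a TSS and an enrichment of 12.45, with 121 mean treatment reads and 19.1 mean input reads. A second peak 2990 bp upstream of another TSS had an enrichment of 8.80 with 42.5 treatment reads and 9.5 input reads. The third, 6590 bp upstream of the same TSS, overlapped the most upstream Igf2 TSS of the reference and had an enrichment of 10.6. All 3 peaks were thus above the median of all peaks, while H19, the maternally expressed non-coding RNA downstream of Igf2, had none. Igf2r, the maternally expressed receptor that clears Igf2, had a single peak over its TSS, chr17:12768601-12770450, with an enrichment of 4.40, 46.8 treatment reads and 23 input reads. This was also the peak nearest to the TSS of Airn, the antisense RNA that starts within Igf2r and silences it on the paternal copy, and it lay inside the span transcribed as Airn.

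The Kcnq1 cluster held the largest number of peaks. Cdkn1c, an inhibitor of cyclin-dependent kinases expressed from the maternal copy, had 5 peaks between 52575 bp downstream and 3950 bp upstream of a TSS. The peak over its promoter, chr7:143458451-143462100, had an enrichment of 10.5 from 188 treatment reads and 36.1 input reads, and with 51.5 treatment reads per kb it was the densest of all 49 peaks. The peak 3950 bp upstream had an enrichment of 4.07 with 40.6 treatment reads and 20.4 input reads. Kcnq1, a potassium channel gene, had a promoter peak with an enrichment of 5.67, 60.4 treatment reads and 23.6 input reads, and 3 peaks in its second intron with enrichments of 6.5, 6.7 and 7.4. The reference span of Kcnq1 overlapped 8 peaks in all, some of them assigned to Cdkn1c or to 4933417O13Rik. Phlda2, a maternally expressed gene that limits growth of the placenta, had a promoter peak with an enrichment of 6.30, 76 treatment reads and 26.5 input reads. Ascl2, a transcription factor of the trophoblast, had a stronger one, chr7:142966651-142970300, with an enrichment of 9.56, 149 treatment reads and 33.6 input reads. Kcnq1ot1, whose promoter drives silencing of the cluster on the paternal copy, had no peak over its span, and the nearest peak, assigned to 4933417O13Rik, had an enrichment of 12.3.

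Gnas encodes the stimulatory G protein alpha subunit and, from upstream promoters, transcripts of either parental origin. It had 4 assigned peaks, and each of its 5 reference TSSs lay inside one. The most upstream peak, chr2:174283501-174286600, had an enrichment of 6.14 with 89.7 treatment reads and 31.4 input reads. The next, chr2:174294701-174301450, was the longest of the 49 at 6750 bp and covered the TSS of Nespas, the antisense RNA that the reference names Gnasas1. It had 216 treatment reads, the most of any member peak, 51.4 input reads and an enrichment of 7.91. The third, chr2:174326651-174331400, had an enrichment of 12.9 with 169 treatment reads and 27.4 input reads. The fourth, 4511 bp downstream of a TSS and in an intron, had an enrichment of 2.8 with 25.5 treatment reads and 18 input reads. Enrichment thus differed between neighbouring peaks of the same gene.

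The Dlk1 to Meg3 cluster had lower values. Dlk1, a paternally expressed transmembrane ligand of the Notch family, had a promoter peak with an enrichment of 5.47, 40.3 treatment reads and 14.7 input reads. Peaks 14473 bp upstream and 6420 bp downstream had enrichments of 3.80 and 6.30. The peak assigned to Meg3, a maternally expressed non-coding RNA, lay between Dlk1 and Meg3 at chr12:109527701-109528950, 12671 bp upstream of the Meg3 TSS. It had an enrichment of 5.43 with 24.9 treatment reads and 10 input reads, and its centre was annotated as a CpG island. Rtl1, a gene derived from a retrotransposon and needed in the placenta, had no peak, and its TSS was 71380 bp from the Meg3 peak.

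**Figure D3:**
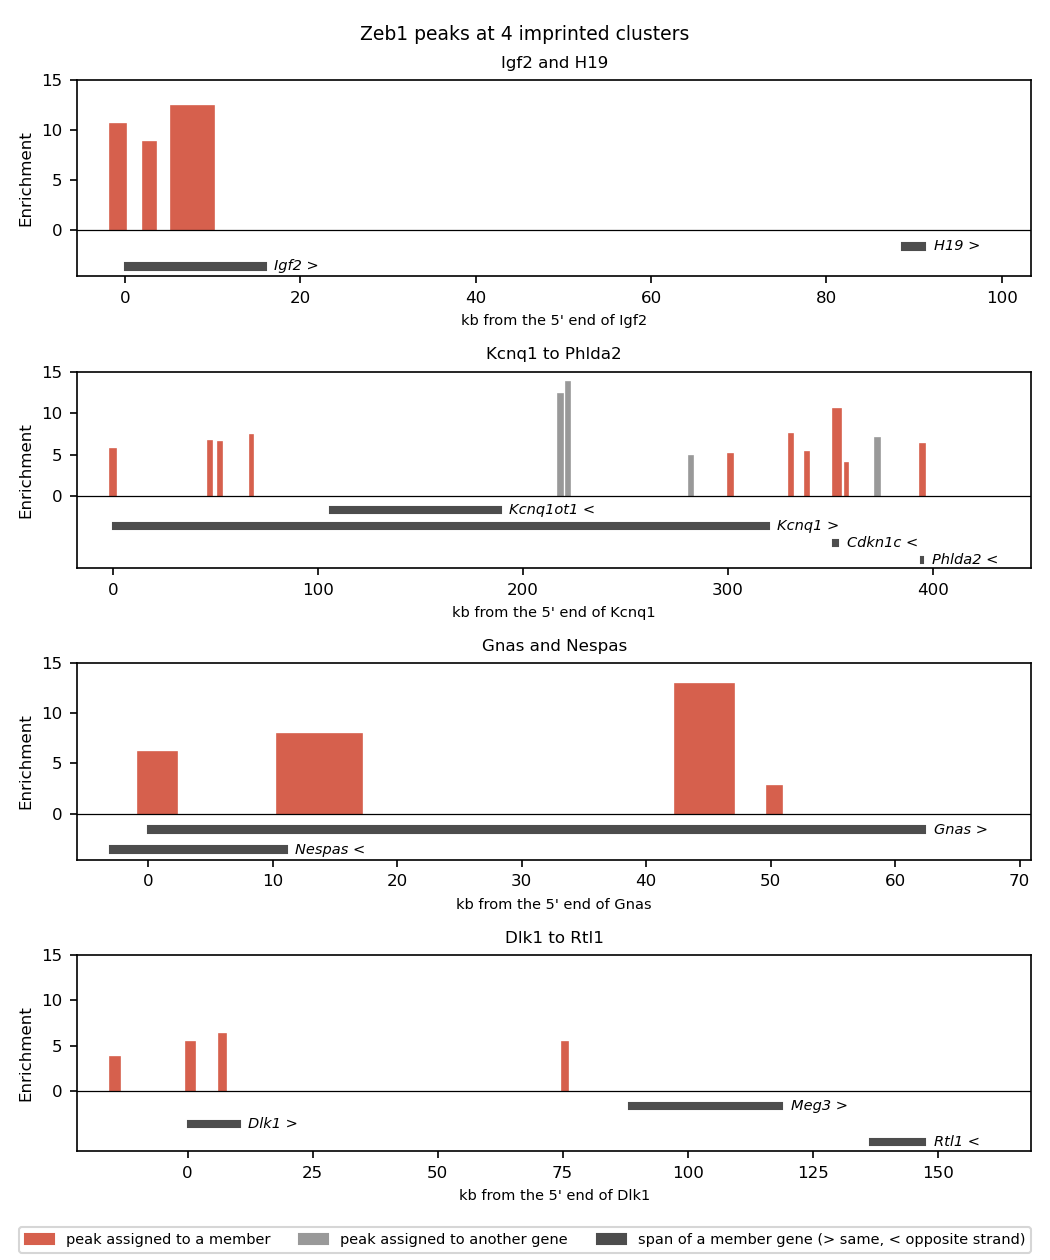
Zeb1 peaks at 4 imprinted clusters, drawn to scale in kb from the 5′ end of the first named gene, with the height of each bar as its mean enrichment and grey bars for peaks assigned to genes outside the list. Peaks lie over Igf2 but not H19, flank but do not overlap Kcnq1ot1, cover the start of Nespas within the second Gnas peak, and include a peak between Dlk1 and Meg3.

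In the Snrpn cluster, the region affected in Prader-Willi and Angelman syndromes, Magel2 had the highest promoter value. Its peak, chr7:62376451-62380100, had an enrichment of 14.0 with 92.9 treatment reads and 13.1 input reads. The intronless genes around it had promoter peaks too, and their enrichment differed. Mkrn3, a ring finger gene, had an enrichment of 9.50 with 39 treatment reads and 8.4 input reads. Peg12 had 6.21 with 36.7 treatment reads and 12.9 input reads. Ndn, a MAGE family gene of neurons, had 4.40 with 37 treatment reads and 17.4 input reads. Treatment reads of Mkrn3, Peg12 and Ndn were thus close, while enrichment was lower where input reads were higher. Ube3a, a ubiquitin ligase expressed from the maternal copy in neurons, had a promoter peak with an enrichment of 6.16, 74.6 treatment reads and 26.6 input reads. None of the 6 TSSs of Snrpn lay in a peak. Its assigned peak, chr7:60350501-60351950, had the highest enrichment of any member peak, 31.0, with 55.1 treatment reads and 4 input reads, and was 98227 bp from the nearest Snrpn TSS.

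Peg3, a zinc finger gene expressed from the paternal copy, and Usp29 start from a shared region on opposite strands. A single peak, chr7:6728801-6731000, covered both TSSs with an enrichment of 5.24, 62.4 treatment reads and 23.3 input reads. Peg10, a retrotransposon-derived gene of the placenta, and Sgce, a sarcoglycan gene, share such a region as well. Their peak, chr6:4746151-4749950, had 99.5 treatment reads, but 43.5 input reads, and an enrichment of 4.35. Zim1, a maternally expressed neighbour of Peg3, was 32369 bp from the Peg3 peak and had none of its own. Mest, a paternally expressed gene of the mesoderm, had a peak over each of its groups of TSSs. The downstream peak, chr6:30736401-30739850, had an enrichment of 6.64 with 114 treatment reads and 33 input reads, and the upstream one 3.31 with 31.3 treatment reads and 20.3 input reads.

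Among single genes of growth control, Plagl1, a zinc finger gene expressed from the paternal copy, stood highest. Its promoter peak, chr10:13089901-13091650, had its centre 13 bp upstream of the TSS by the deposited distance and 56.5 bp upstream of the reference TSS, an enrichment of 12.2, 88.1 treatment reads and 15.4 input reads, and with 50.4 treatment reads per kb it was second to Cdkn1c in density. Further Plagl1 peaks 29838 bp upstream and 37212 bp downstream had enrichments of 9.90 and 6.24. Grb10, an adaptor that restrains growth signals, had peaks of like enrichment, 7 and 7.01, that differed in reads. The first, chr11:12024901-12027350 and near an internal TSS, had 117 treatment reads and 33.7 input reads, and the second, over the upstream TSS, 42.9 and 13.7. Rasgrf1, an exchange factor for Ras, had a promoter peak with an enrichment of 7.80, 95 treatment reads and 27.3 input reads. Its other peak, chr9:89879051-89880450, was 30025 bp upstream and centred on a CTG repeat, with an enrichment of 6.40, 34 treatment reads and 12 input reads.

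Several imprinted genes lie within an intron of a host gene. Nap1l5, a retrogene within Herc3, had a promoter peak with an enrichment of 8.35, 49 treatment reads and 11 input reads. Nnat, a small membrane protein gene within Blcap, had 8.32 with 81.4 treatment reads and 21.2 input reads. Zrsr1 and its host Commd1 differed: the Commd1 promoter peak, chr11:22981501-22982850, had an enrichment of 16.1 with 51.4 treatment reads and 6.4 input reads, the highest of any member within 5 kb, while the Zrsr1 TSS was 9496 bp from that peak. At H13, which hosts Mcts2, the promoter peak had an enrichment of 7 with 52.6 treatment reads and 15.6 input reads. The peak assigned to Mcts2 was 18002 bp downstream of its TSS, near the 3′ end of H13, with an enrichment of 7.91. Inpp5f, a phosphoinositide phosphatase gene, had a peak over both of its reference TSSs with an enrichment of 5.5, 34 treatment reads and 14 input reads. Its imprinted transcript is known to start further inside the gene, where no TSS was used. The peak assigned to Zdbf2 was 24869 bp upstream of the TSS of the named transcript and within the reference span of the gene, with an enrichment of 4.20. Impact and Slc38a4, both with maternally methylated promoters, had neither an assigned peak nor a peak within 5 kb of the gene.

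Treatment reads rise with the length of a peak, so reads were also set per kb. The 49 peaks had a median of 25.3 treatment reads per kb and 7.95 input reads per kb, and all peaks had 25.1 and 8.07. Within 5 kb of a TSS the medians of treatment reads per kb were 27.4 for members and 26.8 for all peaks. At least 100 treatment reads were found in 7 peaks of members (14.3%), beside 6.91% of all peaks. The peaks with the highest enrichment were not those with the most reads. The Snrpn peak with an enrichment of 31.0 had 38.0 treatment reads per kb, above 90.9% of all peaks, and 2.76 input reads per kb. The Peg12 peak with 29.6 had 21.2 and 1.68. The lowest enrichment, 2.30, was at another Peg12 peak with 28.5 treatment reads and 30 input reads, or 27.3 input reads per kb.

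**Figure D4:**
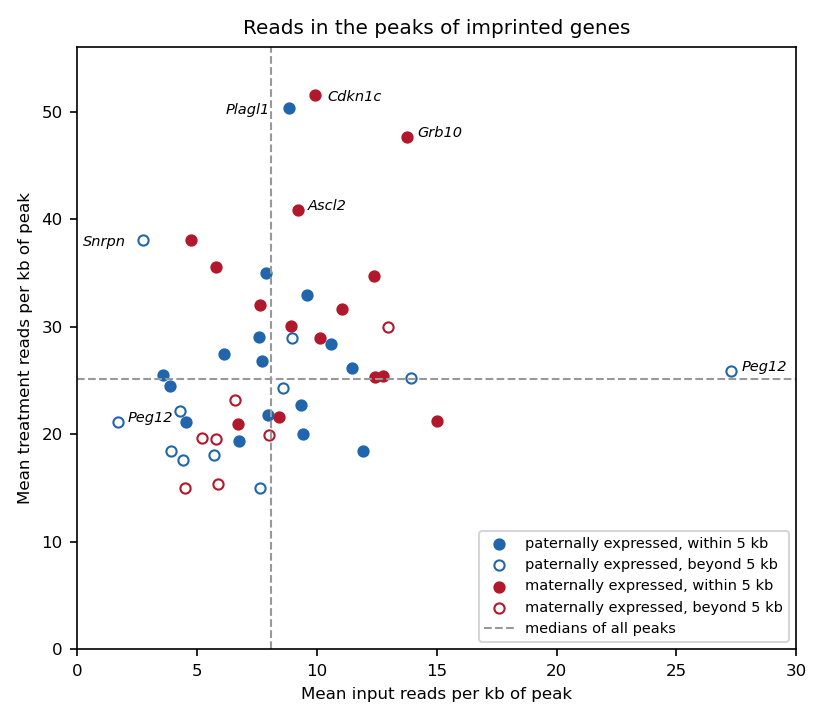
Mean treatment reads per kb against mean input reads per kb for the 49 peaks of imprinted genes, with dashed lines at the medians of all peaks (25.1 and 8.07). Colour is the expressed parental copy listed for the assigned gene, and symbols are filled within 5 kb of the TSS. Cdkn1c and Plagl1 have the most treatment reads per kb, 51.5 and 50.4, and the Peg12 peaks beyond 5 kb have the fewest and the most input reads per kb.

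Peaks centred on a LINE or LTR repeat made up 4 of the 49 (8.16%), beside 16% of all peaks. All 4 were beyond 5 kb of a TSS, where they made up 22.2% of members' peaks and 40.5% of all peaks. They were the Snrpn peak on an L1Md_T element, the Peg12 peaks 193340 bp upstream on RLTR6-int and 203940 bp upstream on an L1Md_A element, and the Dlk1 peak 14473 bp upstream on L1ME4b. The members' highest and lowest enrichments were thus both found on repeats, far from a TSS. By the study's methods the alignment kept uniquely placed reads alone, so that reads matching several copies of a repeat were left out before peaks were found.

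The Zeb1 motif was present in 37 of the 49 peaks (75.5%), beside 76.8% of all peaks and 78.8% of peaks within 10% of the same lengths. The motif was less dense in the members' peaks, with 0.695 matches per kb and 0.889 over all peaks together. In the 200 bp at the peak centre, 4.08% of members' peaks and 16.7% of all peaks held it. CACCTG was present in 41 peaks (83.7%), beside 82.1% of all peaks. Over all RefSeq promoters of GRCm38.p6, of 300 bases each, 16.9% held the Zeb1 motif, 20.2% CACCTG and 11.6% TGCCGC. Peaks are longer, with a median of 1900 bp for members and 1850 bp for all peaks. The shares of promoters and of whole peaks are thus not at like length and cannot be compared directly. Among the 12 peaks of members without the Zeb1 motif were the Peg12 peak with an enrichment of 29.6, the second highest of the 49, and the Plagl1 promoter peak with 12.2. The Peg3 and Meg3 peaks also lacked it. The Kcnq1 promoter peak held the most matches, 7, at an enrichment of 5.67.

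TGCCGC was found in 33 of the 49 peaks (67.3%), beside 54.4% of all peaks and 57.1% of peaks of like length. Within 5 kb of a TSS it was found in 25 of 31 peaks (80.6%), beside 66.7% of all peaks there. The density differed more than the share, with 1.07 matches per kb in members' peaks and 0.494 over all peaks together, and with 1.22 and 0.607 within 5 kb. The peak over the Nespas TSS held 14 matches, that of Mest 12, Nnat 8, Peg3 7 and Plagl1 6. The Rasgrf1 peak upstream of the gene had 4.29 matches per kb, a density reached by 8 of 17386 peaks outside the list, and the Meg3 peak had 4.00, reached by 11. Next came Nap1l5 with 3.57, Mest with 3.48, Plagl1 with 3.43 and Peg3 with 3.18 matches per kb.

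Sorted by what they cover, 8 peaks lay over a TSS of a member of the group with maternally methylated promoters, and all 8 held TGCCGC, with 2.35 matches per kb. Of the 20 peaks over a TSS of other members 16 held it, with 0.744 per kb. Of the 21 peaks over no member TSS 9 held it, with 0.723 per kb. For the Zeb1 motif these densities were 0.461, 0.763 and 0.750 per kb, the lowest in the 8 peaks, which as a class had the most TGCCGC per kb. Enrichment had medians of 7.28, 7.01 and 6.40 in the same order. The peaks of Peg10 and the upstream peak of Mest, with 0.789 and 0.588 TGCCGC matches per kb, were the lowest of the 8. The other 41 peaks include those near the internal promoters of Grb10, with 1.63, and Gnas, with 1.26 matches per kb. They also include the peak over the upstream Grb10 TSS, with 2.44, and the Rasgrf1 and Meg3 peaks over no member TSS, with 4.29 and 4.00. The classes are thus not cleanly divided. The ratio of observed to expected CpG had a median of 0.640 in the 8 peaks, 0.671 in the 20 and 0.446 in the 21. Over the 49 peaks it was 0.578 and over all peaks 0.538, and within 5 kb of a TSS 0.659 and 0.643.

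**Figure D5:**
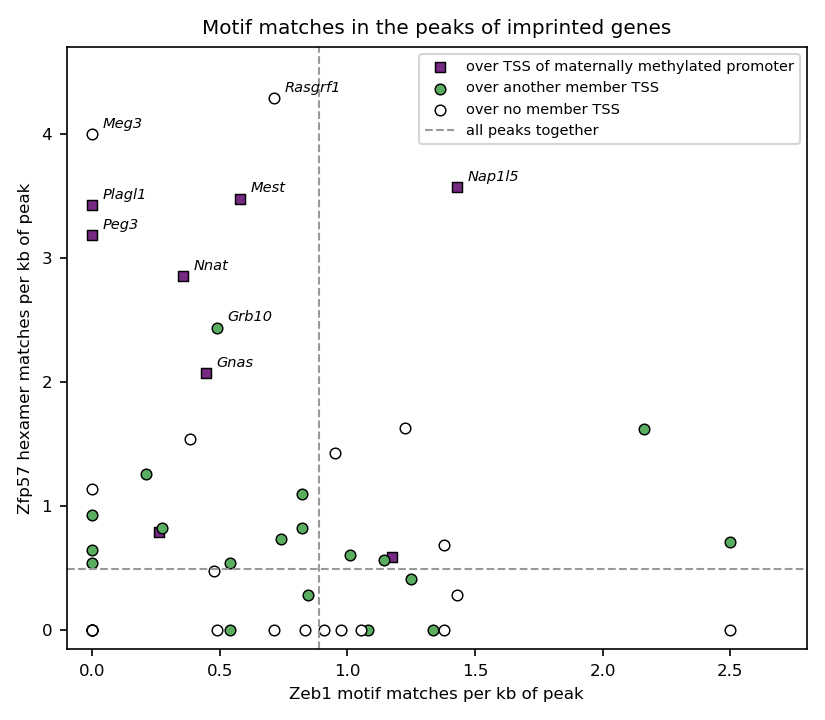
Matches per kb to the Zfp57 hexamer TGCCGC (vertical axis) and to the Zeb1 motif (horizontal axis) in each of the 49 peaks, with symbols for what the peak covers and dashed lines at the densities over all peaks together (0.494 and 0.889). The peaks of Rasgrf1 and Meg3 over no member TSS and those of Nap1l5, Mest, Plagl1, Peg3 and Nnat lie highest for the hexamer.

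A further 42 imprinted genes served for comparison. Of these, 28 had an assigned peak (66.7%) and 23 had one within 5 kb of the TSS (54.8%), beside 46.8% and 38.0% of all curated genes. The highest enrichments within 5 kb were those of Dio3, a deiodinase gene of the Dlk1 cluster (10.5), Cd81 (10.4), Klf14 (9.97), the transporter gene Slc22a2 (8.80) and the potassium channel gene Kcnk9 (8.37). TGCCGC had a density of 0.440 matches per kb in their 39 peaks, 1.07 in the 49 peaks of the 39 members and 0.494 over all peaks together. Within 5 kb of a TSS these densities were 0.619, 1.22 and 0.607. Peaks centred on a LINE or LTR repeat made up 25.6% of the 39 peaks, beside 8.16% of the 49 and 16% of all peaks. Among 23 genes known to set, keep or remove imprints, 17 had an assigned peak (73.9%) and 16 had one within 5 kb (69.6%). The shares of all curated genes were 46.8% and 38.0%. The highest were the DNA methyltransferase genes Dnmt3b (11.9) and Dnmt1 (9.63), the chromatin remodeller Hells (8.34), the histone demethylase Kdm1b (8.32) and Uhrf1 (8.31), which brings Dnmt1 to replicated DNA. Regulators without an assigned peak were Cbx5, Dppa3, Nlrp5, Setdb1, Tet1 and Zfp445.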

How the data were processed

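The deposited list holds peaks of Zeb1 ChIP-seq in mESC kept in GS, as a union of regions that overlapped in at least 2 replicates. Per the submitters' processing notes, FastQC 0.11.2, STAR 2.4.2a, Picard 1.136 and HOMER 4.7 were used with mm10, and DESeq is named there too. Mean treatment and input reads are a signal that the authors recounted on the unified peaks and averaged in a way that the values do not make clear. Mean enrichment is the deposited ratio of ChIP to Input, which the authors scaled to the mapped reads. The deposited p-value was 0 in each of the 17435 peaks and ranked none. The lowest values in the list were 20 treatment reads and an enrichment of 2. The authors drew an equal number of reads at random from each sample and kept uniquely aligned ones. How many of these aligned in each library cannot be read from the list, and reads within peaks are not a depth.

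Rows were taken for the gene symbols of the 39 members, and the Entrez identifiers of all 28 members with rows matched RefSeq. Reference TSSs came from 45756 curated transcripts of GRCm38.p6. Deposited distances were within 2 bp of recomputed ones in 39 of 49 peaks, with a largest difference of 235.5 bp. Positive distances lay downstream, opposite to the legend of the list, and were read so. Motifs were searched on both strands of the whole peak. Promoter sequences were those of RefSeq for GRCm38.p6, with entries for 31 of the members and none for H19, Impact, Peg10, Kcnq1, Cdkn1c, Sgce, Rtl1 and Nespas. Searches were first tested on simulated sequences. Members and gene lists were chosen with earlier results of these data known. All members were named, with full values for those with an assigned peak within 5 kb of the TSS and for the highest and lowest enrichment, and in the other lists the 5 genes with the highest enrichment within 5 kb. The regulators without an assigned peak, 4933417O13Rik and Gm34081 were named after their values were seen. Other enrichment limits, distances, assignments, motif windows and strands were tried. Sequences were read with samtools 1.23.1 and pysam 0.24.0, and values were computed in Python 3.11.15 with pandas 2.3.3, SciPy 1.17.1 and NumPy 2.4.6.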

Additional observations from a re-analysis of the deposited data

How the results depend on the processing

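Of 25 alternatives over 8 results, 18 left the value within 1.5 times (counts of genes) or within the 95% interval of the main value (binomial for shares, from ranks for medians, covering counting error only). The count of members with an assigned peak ranged from 24 to 30 except at an enrichment of at least 10, which left 8, since fewer peaks enter. The count within 5 kb of the TSS ranged from 21 to 27. Shares of all curated genes at these other settings are not given, so these counts do not show whether members stay above all genes there. The share of peaks with the Zeb1 motif moved to 57.1% on the forward strand alone (all peaks 54.4%) and to 4.08% in the central 200 bp (all peaks 16.7%). That window searches fewer bases in members' peaks and in all peaks alike. Why the members' share was the lower one there was not tested. The share with TGCCGC moved to 46.9% for at least 2 matches (all peaks 26.6%), to 30.6% in the central 200 bp (all peaks 16%) and to 80.6% within 5 kb of the TSS. The median CpG ratio moved to 0.747 in the central 500 bp (all peaks 0.664). The causes of the moves to 80.6% and 0.747 were not tested. The restriction of both motifs to peaks within 5 kb and of enrichment to peaks off LINE and LTR repeats, and the count with Grb10 and Gnas among maternally methylated promoters, were added after seeing the data. Leaving out each replicate in turn was not run, since the list has no value per library. No paired analysis was possible because the results come from no test and the groups share fewer than 2 replicate numbers. A gene without a peak is only a gene not in this list, which shows no reads outside peaks.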
